A study of Mus musculus with 11 samples.

Results

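The transcripts of the receptors and endogenous ligands of 3 cytokines, TGF-β1, IL-34 and CX3CL1, were examined in mouse microglia, the resident macrophages of the brain. The 8 genes were the receptors Cx3cr1, Csf1r, Tgfbr1 and Tgfbr2 and the ligands Tgfb1, Il34, Csf1 and Cx3cl1. They were chosen by name, by pairing the RefSeq accession of each probe with a gene symbol, and they are 8 of the 23329 genes with a matched probe. All 8 were among the 19555 genes tested, since each had a probe that cleared the background on all arrays of 1 group or more.

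Expression was measured on 11 single-colour Agilent arrays of 4 groups of C57BL/6N microglia, and no transgene is named for any of them. Adult microglia (A_FACS, 2 arrays) came from female mice aged 12 to 24 weeks and newborn microglia (NB_FACS, 3 arrays) from mice of both sexes at postnatal days 1 to 3. Both were sorted as cells with high CX3CR1 and intermediate CD45 staining and lysed directly. The other groups came from flask cultures, each seeded with 2 to 3 newborn brains and fed at intervals with 20% medium conditioned by the mouse fibroblast line L-929, a source of the CSF1R ligand M-CSF. Microglia were shaken off these flasks for 5.5 h and kept for 1 day in DMEM/F12 with 10% serum, either as they were (NB_Control, 3 arrays) or with the human forms of the 3 cytokines, each at 100 ng/mL (NB_Stim, 3 arrays). A_FACS and NB_FACS differed in sex as well as in age. Adult mice were killed with carbon dioxide and perfused, and their brains were pressed through a strainer. Newborn mice were decapitated, and their brains were dissociated by pipette. These differences cannot be told apart. Sorted and cultured groups differed in isolation and in the weeks spent in flasks as well as in the last day of culture. These cannot be told apart either. Slide 2 carried the arrays numbered 3 of the newborn groups, and slide 1 carried the remaining 8.

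CX3CL1 (fractalkine) is made mainly by neurons as a membrane protein that can be shed, and its only known receptor, the G protein-coupled receptor CX3CR1, is carried in the brain by microglia. CSF1R is the receptor tyrosine kinase on which microglia depend for survival, and it is bound by both CSF1 and IL-34. TGF-β1 assembles TGFBR2, which binds the ligand, with TGFBR1, which TGFBR2 phosphorylates, and TGFBR1 then activates SMAD transcription factors. TGF-β signalling is known to be needed for the mature microglial expression pattern in the mouse. The cytokines were added as proteins, which an array of transcripts does not read.

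Cx3cr1 and Tgfbr1 were the only members called between NB_Stim and NB_Control in the test described below, 2 of 8 where 3.41% of all genes were called, and the 250 bases before their annotated starts are shown so that their upstream sequence can be read beside their values. The sequences are from RefSeq (GRCm38.p6), written 5′ to 3′ on the strand of the gene, and capitals mark every match to GTCT on either strand, the short motif bound by SMAD proteins. The window of Cx3cr1 is chr9:120068297-120068546 on the minus strand. Tgfbr1 has entries for 2 starts, at chr4:47352972-47353221 and chr4:47385966-47386215, both on the plus strand.
Cx3cr1: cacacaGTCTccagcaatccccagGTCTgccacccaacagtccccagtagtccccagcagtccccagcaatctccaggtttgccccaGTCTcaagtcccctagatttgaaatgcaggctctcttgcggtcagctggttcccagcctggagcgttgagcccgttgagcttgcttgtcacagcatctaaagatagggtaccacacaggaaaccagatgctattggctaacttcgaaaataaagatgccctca
Tgfbr1, first start: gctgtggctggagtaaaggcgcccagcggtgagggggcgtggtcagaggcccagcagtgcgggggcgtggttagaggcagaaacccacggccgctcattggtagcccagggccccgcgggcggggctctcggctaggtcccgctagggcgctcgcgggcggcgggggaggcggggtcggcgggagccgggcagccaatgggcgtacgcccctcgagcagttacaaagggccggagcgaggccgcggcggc
Tgfbr1, second start: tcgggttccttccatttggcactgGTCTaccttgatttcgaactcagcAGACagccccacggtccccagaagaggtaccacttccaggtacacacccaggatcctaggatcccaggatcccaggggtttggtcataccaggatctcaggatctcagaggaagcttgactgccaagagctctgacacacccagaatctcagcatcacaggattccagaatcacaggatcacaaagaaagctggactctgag

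The window of Cx3cr1 held 3 matches to GTCT, the first start of Tgfbr1 0 and the second 2. Of the 32851 promoters searched over the same length, 82.9% held at least 1 match and the median was 2, so that the motif is common in windows of this size. The purine-rich sequence GAGGAA, the core recognised by the myeloid factor PU.1, was searched on both strands as well and was in 23.3% of all promoters. It was found 0 times before Cx3cr1 and the first start of Tgfbr1 and 1 time before the second. Entries were at hand for 6 of the 8 members, and those of Tgfbr2 (1), Tgfb1 (1), Csf1 (2) and Cx3cl1 (2) held the GTCT matches given in brackets. A match in a window is a string of letters and not a measured binding site.

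Csf1 had 3 probes and Il34 had 4, whereas the other 6 members rested on 1 probe each. The first 30 bases of these probes are shown because not all of them were above background, so that the values of the CSF1R ligands depend on which of them are read. They are written as the scanner files list them, in lower case with no part marked, and their place in the genome was not determined here.
Csf1 MMXS22967: tcagcatctccattccctaaatcaacagag
Csf1 MMXS38830: cagtctcacctaccatactgtgccatctct
Csf1 MMXS50976: ctacaagtggaagtggaggagccatcgaga
Il34 MMXS05589: cgaggaccaaccaaatgccgtatcttgcca
Il34 MMXS18590: gagaagactgtaggctgaacacacaacagc
Il34 MMXS15143: cgggtcatggaactgctgtactgttcttgc
Il34 MMXS31403: ggaaatggagagccagggattagaatatca
Whole probes were 46 to 53 bases long, and the longest run that any of these shared with another probe of the same gene was 5 to 7 bases, so that the probes of a gene read different stretches. All 3 probes of Csf1 passed the filter on dim probes. Of the 4 probes of Il34, MMXS05589 and MMXS18590 passed.

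Values below are quantile-normalised log2 signals, averaged over the probes of a gene that passed the filter. A difference of 1 on this scale is a 2-fold difference in signal. Signals of different genes are not comparable, because probes differ in how well they bind, so that each gene was compared with itself across groups. A comparison was called when the adjusted p of limma's moderated 2-sided test, corrected by Benjamini-Hochberg over all 19555 genes, was under 0.05. The 6 comparisons share groups, NB_Control and NB_FACS among them, and their results are therefore not independent. The probes of the members other than Il34 were well above background on all 11 arrays.

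Markers of the labelled cell type were read first. Of 10 microglial marker genes 7 had a matched probe, and all 7, including Tmem119, P2ry12 and Itgam, were well above background in every group. The same held for all 7 matched markers of astrocytes and all 4 of the oligodendrocyte lineage, so that clearing the background does not tell cell types apart. The mean log2 signal of the 7 microglial genes was 13.85 to 14.02 in A_FACS, 12.84 to 12.92 in NB_FACS, 10.18 to 10.93 in NB_Control and 11.99 to 12.23 in NB_Stim, so that the groups did not overlap. The mean signals of markers of other cells differed between groups as well. The 8 fibroblast markers averaged 3.01 to 3.95 in A_FACS, 5.41 to 5.62 in NB_FACS, 7.93 to 8.24 in NB_Control and 6.87 to 7.93 in NB_Stim, and the 8 endothelial markers averaged 8.52 to 9.27, 7.31 to 8.06, 4.67 to 5.23 and 5.28 to 5.41 in the same order. The 8 markers of border macrophages averaged 5.01 to 6.46, 8.6 to 9.65, 9.15 to 9.48 and 7.5 to 7.8. Here single genes went in opposite directions between NB_FACS and NB_Control. Pf4 had means of 10.42 and 15.13 and Ms4a7 of 7.46 and 14.13. Cbr2 had means of 9.09 and 5.94 and Lyve1 of 7.82 and 3.02, the last not well above background. Mrc1 fell most from NB_Control to NB_Stim, with means of 13.33 and 8.08. The 4 matched markers of the oligodendrocyte lineage averaged 6.25 to 6.66, 6.9 to 7.02, 7.82 to 8.43 and 9.4 to 10.11, with NB_Stim above all other groups. These 4 did not move alike between NB_Control and NB_Stim. Cspg4 had means of 9.54 and 13.1, Olig2 of 7.81 and 9.16, Olig1 of 6.71 and 7.65 and Mbp of 8.7 and 8.67. The 7 matched markers of astrocytes averaged 5.99 to 6.65, 7.05 to 7.31, 7.54 to 7.93 and 7.61 to 8.29. The 7 erythroid markers averaged 8.02 to 8.86, 10.5 to 11.11, 4.68 to 4.85 and 4.66 to 5.06, and the 6 of neutrophils and monocytes 6.13 to 8.01, 5.6 to 8.88, 5.82 to 6.14 and 6.23 to 6.4. The part of these lists in the results on the members was not tested. In bulk samples such as these, fewer cells of a type and less RNA per cell cannot be told apart.

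**Figure D1:**
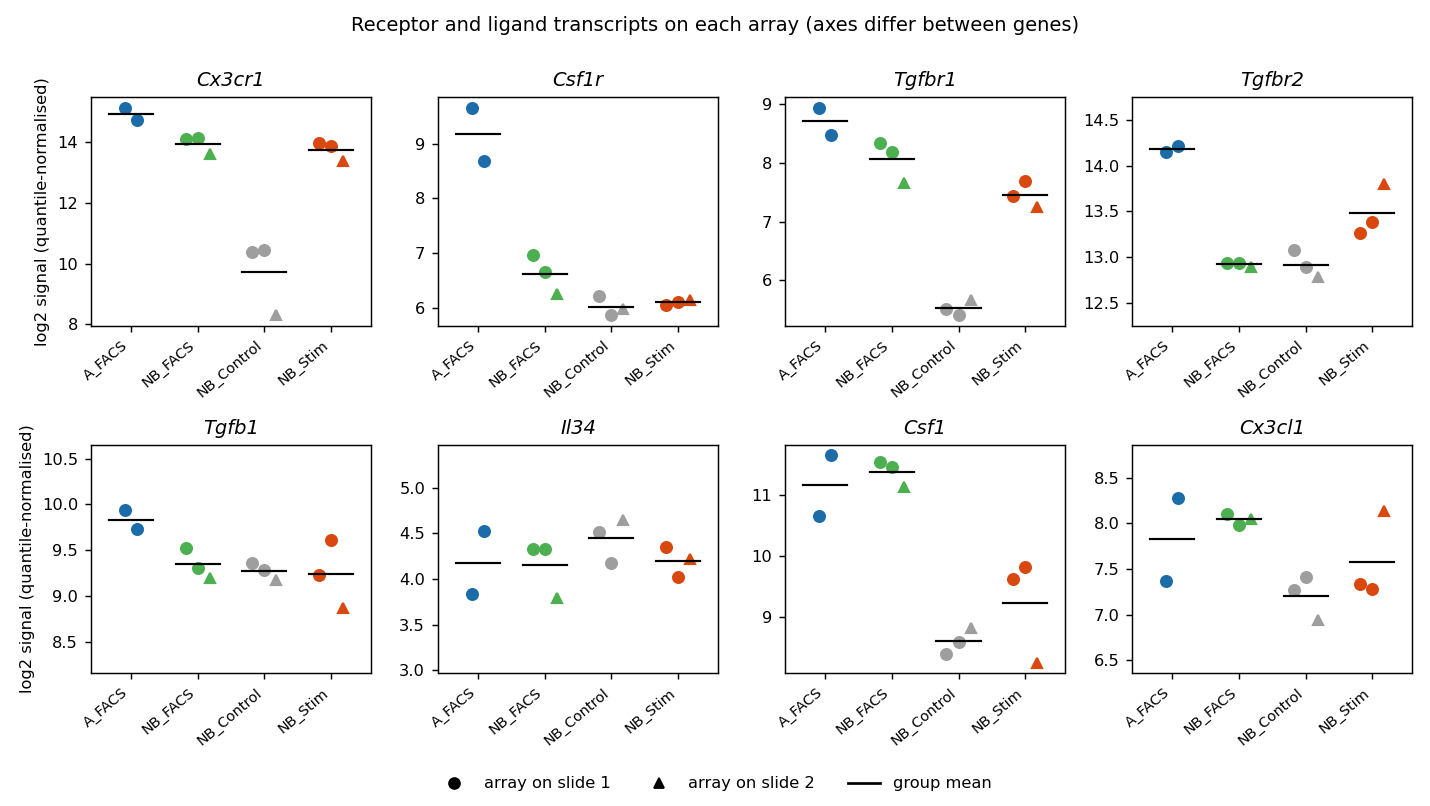
Quantile-normalised log2 signal (vertical axis) of the 8 members on each of the 11 arrays, by group, with circles for slide 1, triangles for slide 2 and a line at the group mean. Cx3cr1 and Tgfbr1 were lowest in NB_Control, and Csf1r and Tgfbr2 were highest in A_FACS. Csf1 was higher in both sorted groups than in both cultured groups, whereas the arrays of Il34, a mean of 2 probes, overlapped between all groups.

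Cx3cr1, the fractalkine receptor, was highest in A_FACS, where the arrays gave 15.15 and 14.75. NB_FACS gave 14.11, 14.13 and 13.62 and NB_Stim gave 13.97, 13.89 and 13.39. NB_Control gave 10.4, 10.45 and 8.3. All 3 NB_Control arrays were thus below every other array, and replicate 3, the array of that group on slide 2, was the lowest by a wide margin. The group means were 14.95 ± 0.283 (SD, n = 2), 13.95 ± 0.286 (n = 3), 13.75 ± 0.31 (n = 3) and 9.72 ± 1.23 (n = 3) in A_FACS, NB_FACS, NB_Stim and NB_Control. Neighbours in this order were not told apart until the step from NB_Stim to NB_Control, with adjusted p-values of 0.238 between A_FACS and NB_FACS and 0.79 between NB_FACS and NB_Stim (limma).

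NB_Stim exceeded NB_Control in Cx3cr1 by 4.03 on the log2 scale (SE 0.497, 16.4-fold, adjusted p 0.00221, limma). The difference was 3.5 within slide 1 and 5.09 within slide 2, and it was 3.33 without NB_Control replicate 3. After culture without cytokines the gene was 4.24 lower than in NB_FACS (a difference of -4.24, SE 0.497, adjusted p 0.000169), with -3.7 within slide 1 and -5.32 within slide 2. Because the sort selected cells with high CX3CR1 staining and the shaking did not, the gate entered every comparison of a sorted with a cultured group for this gene. Between NB_Stim and NB_Control no gate was involved. NB_Stim and NB_FACS overlapped, and the interval of their difference ran from -1.32 to 0.91. A_FACS exceeded both without overlap, by 1 over NB_FACS and 1.2 over NB_Stim, and these differences were called only without NB_Control replicate 3 (adjusted p 0.016 and 0.0037), with the 2 groups fitted alone (0.0474 and 0.0179) or, for NB_Stim, with array weights (0.0477).

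Tgfbr1, the receptor kinase that activates SMADs, followed the same order of groups. A_FACS gave 8.94 and 8.48 and NB_FACS gave 8.34, 8.18 and 7.65. NB_Stim gave 7.43, 7.69 and 7.25, and NB_Control gave 5.52, 5.41 and 5.67. NB_Control was again below all other arrays, here with a spread among its 3 arrays of only 0.133 (SD), while NB_Stim and NB_FACS overlapped by 1 array. NB_Stim exceeded NB_Control by 1.92 (SE 0.212, 3.79-fold, adjusted p 0.0012, limma), with 2.09 within slide 1 and 1.58 within slide 2. NB_Control was below NB_FACS by 5.75-fold (log2 difference -2.52, SE 0.212, adjusted p 2.17e-05). With normexp, another background correction, these differences were smaller, 1.16 and -1.61, and both were still called.

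For Tgfbr1 the step from NB_FACS down to NB_Stim was -0.6 (interval -1.07 to -0.13), and whether it was called depended on the fit. The adjusted p was 0.0562 in limma without a block, 0.0433 with the replicate number as a block and 0.0332 with the slide as a block, and 0.0124 without NB_FACS replicate 3 (a difference of -0.8), and the call was gained in 5 of 28 alternatives. A_FACS was above NB_Stim by 1.25 (SE 0.236, adjusted p 0.00237) and above NB_FACS by 0.65 (adjusted p 0.0785), the latter without overlap of the arrays.

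Tgfbr2, the receptor that binds TGF-β and phosphorylates TGFBR1, had another order. A_FACS gave 14.15 and 14.22, and NB_Stim followed with 13.26, 13.38 and 13.8. NB_FACS gave 12.94, 12.94 and 12.89, and NB_Control gave 13.08, 12.89 and 12.78. The sorted and the cultured newborn cells without cytokines lay on top of each other, with a mean of 12.92 in both and a difference of 0 (interval -0.36 to 0.35). The NB_Control arrays of Tgfbr2 overlapped those of NB_FACS, whereas those of Tgfbr1 did not.

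All 3 NB_Stim arrays of Tgfbr2 were above all arrays of NB_Control and of NB_FACS. The difference was 0.56 in both cases, and it was called against NB_FACS (adjusted p 0.0219, limma) but not against NB_Control (interval 0.21 to 0.92, adjusted p 0.0967). In 3 of 28 alternatives the difference from NB_Control was called, with normexp (0.52, adjusted p 0.0468), with array weights (0.31, adjusted p 0.0152) and with the Tukey test without adjustment over genes. The call against NB_FACS was lost in 6 of 28, among them those without NB_FACS replicate 1 (adjusted p 0.0554) or replicate 2 (0.059) and that scaled by the 75th percentile (0.34, adjusted p 0.11). Within slides the difference from NB_Control was 0.34 on slide 1 and 1.02 on slide 2, and that from NB_FACS was 0.38 and 0.91. A_FACS was above NB_FACS by 1.26 (SE 0.176, 2.4-fold, adjusted p 0.000915) and above NB_Stim by 0.7 (adjusted p 0.0103). The call against NB_Stim was lost in 5 of 28 alternatives, among them those without A_FACS replicate 2 (0.67, adjusted p 0.0542), with the 2 groups fitted alone (0.0551) and with cultured replicates 1 and 2 averaged (0.62, adjusted p 0.0542).

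Csf1r, the receptor shared by IL-34 and CSF1, gave the largest difference between A_FACS and NB_FACS of the 8 members. A_FACS gave 9.66 and 8.68. NB_FACS gave 6.96, 6.66 and 6.25, NB_Control gave 6.22, 5.87 and 5.99, and NB_Stim gave 6.06, 6.11 and 6.14. Each A_FACS array was above each newborn array, although the pair itself lay apart. The gene was 5.83-fold higher in A_FACS than in NB_FACS (log2 difference 2.54, SE 0.286, adjusted p 0.000293, limma), and 8.8-fold and 8.36-fold higher than in NB_Control and NB_Stim. The difference from NB_FACS was 2.05 without A_FACS replicate 1 and 3.03 without replicate 2. Over all 28 alternatives its lowest value was 1.95. The differences from NB_Control and NB_Stim, 3.14 and 3.06 in the main fit, were as low as 2.26 and 2.23. All 3 stayed called in every alternative.

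Among the newborn groups no difference in Csf1r was called without array weights or the omission of an array. NB_Stim and NB_Control overlapped, with a difference of 0.08 (interval -0.5 to 0.65, adjusted p 0.951). Both cultured groups were below all NB_FACS arrays, by 0.59 in NB_Control (a difference of -0.59, interval -1.17 to -0.02, adjusted p 0.114) and by 0.52 in NB_Stim (-0.52, interval -1.09 to 0.05, adjusted p 0.157). The call for NB_Control was gained without either A_FACS array (adjusted p 0.0427 in each case) and without NB_FACS replicate 3 (0.0496). With array weights both cultured groups were called, NB_Control at -0.63 (adjusted p 0.0026) and NB_Stim at -0.6 (adjusted p 0.0011). With normexp the difference of NB_Control from NB_FACS was smaller, -0.31, and was not called.

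Among the ligands, Csf1 carried the largest differences. Csf1 encodes M-CSF, the growth factor that also reached the flasks through the conditioned medium. NB_FACS gave 11.53, 11.46 and 11.13, and A_FACS gave 10.66 and 11.65. NB_Stim gave 9.63, 9.82 and 8.26, and NB_Control gave 8.4, 8.6 and 8.82. Every sorted array was above every cultured array. NB_Control was 6.81-fold below NB_FACS (log2 difference -2.77, SE 0.396, adjusted p 0.000564, limma) and NB_Stim was 4.39-fold below it (-2.13, SE 0.396, adjusted p 0.00255).

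The slides disagreed on Csf1 between NB_Stim and NB_Control. Replicates 1 and 2 of NB_Stim were above all NB_Control arrays, a difference of 1.23 within slide 1, whereas replicate 3 was below them, a difference of -0.57 within slide 2. Over all arrays the difference was 0.63 (interval -0.25 to 1.52, adjusted p 0.538). It was 1.12 with weights that let limma count less reliable arrays less (adjusted p 0.000585), which ended in a call. A_FACS exceeded NB_Stim by 1.92 (SE 0.443, adjusted p 0.00685), a call lost without A_FACS replicate 2 (1.42, adjusted p 0.0681), and exceeded NB_Control by 2.55 (adjusted p 0.00133). A_FACS and NB_FACS overlapped, with a difference of -0.21 (interval -1.2 to 0.78).

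The 3 probes of Csf1 moved together in the newborn comparisons. Between NB_Control and NB_FACS they gave -3.04 (MMXS22967), -2.73 (MMXS38830) and -2.53 (MMXS50976), each called, with adjusted p-values of 0.000376, 0.000364 and 0.00328 over all probes tested. Between NB_Stim and NB_Control they gave 0.56, 0.56 and 0.77, and none was called. Between A_FACS and NB_Stim MMXS50976 stood apart, with 1.29 (adjusted p 0.0829) beside 2.18 and 2.29 for the other two, which were called. Adult replicate 1 was below adult replicate 2 with all 3 probes.

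Il34, the second ligand of CSF1R, was dim, and no difference between groups was called in the mean of its 2 probes that passed the filter. The gene gave 3.83 and 4.52 in A_FACS, 4.33, 4.33 and 3.79 in NB_FACS, 4.51, 4.18 and 4.65 in NB_Control and 4.35, 4.02 and 4.22 in NB_Stim. The arrays of all 4 groups overlapped, and the lowest adjusted p over the 6 comparisons was 0.38 (limma). Between NB_Stim and NB_Control the difference was -0.25 (interval -0.76 to 0.26).

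The mean of Il34 joined probes of which only 1 was measured in most arrays. MMXS05589 was well above background on 10 of 11 arrays, the exception being A_FACS replicate 1. MMXS18590 was well above background on 3 arrays, both of A_FACS and NB_Stim replicate 3, and MMXS15143 and MMXS31403 on 1 array each. MMXS18590 passed the filter through A_FACS alone and was not well above background on any array of NB_FACS or NB_Control. It is still part of the gene mean. Between A_FACS and NB_FACS it gave 0.79 beside -0.74 for MMXS05589. Against NB_Control it gave 0.86 beside -1.4, and against NB_Stim 0.68 beside -0.72. The 2 probes thus offset each other, so that the mean does not show whether Il34 differed in A_FACS. With MMXS05589 alone A_FACS and NB_Control differed by -1.4, a value that includes 1 of 2 A_FACS arrays not well above background. Its adjusted p was 0.0486 in limma over genes read by their brightest probe. Over all probes tested, as used for the probes of Csf1, it was 0.0529 (limma) and was not called. Neurons are a known source of IL-34 in the brain, and the mean of 10 neuronal markers was 4.71 to 5.12 in A_FACS, 5.97 to 6.19 in NB_FACS, 5.29 to 5.65 in NB_Control and 5.6 to 6.05 in NB_Stim. Of these 10 genes, 7, 9, 8 and 9 were well above background in the same order of groups, and their part in the values of Il34 and Cx3cl1 was not tested.

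**Figure D2:**
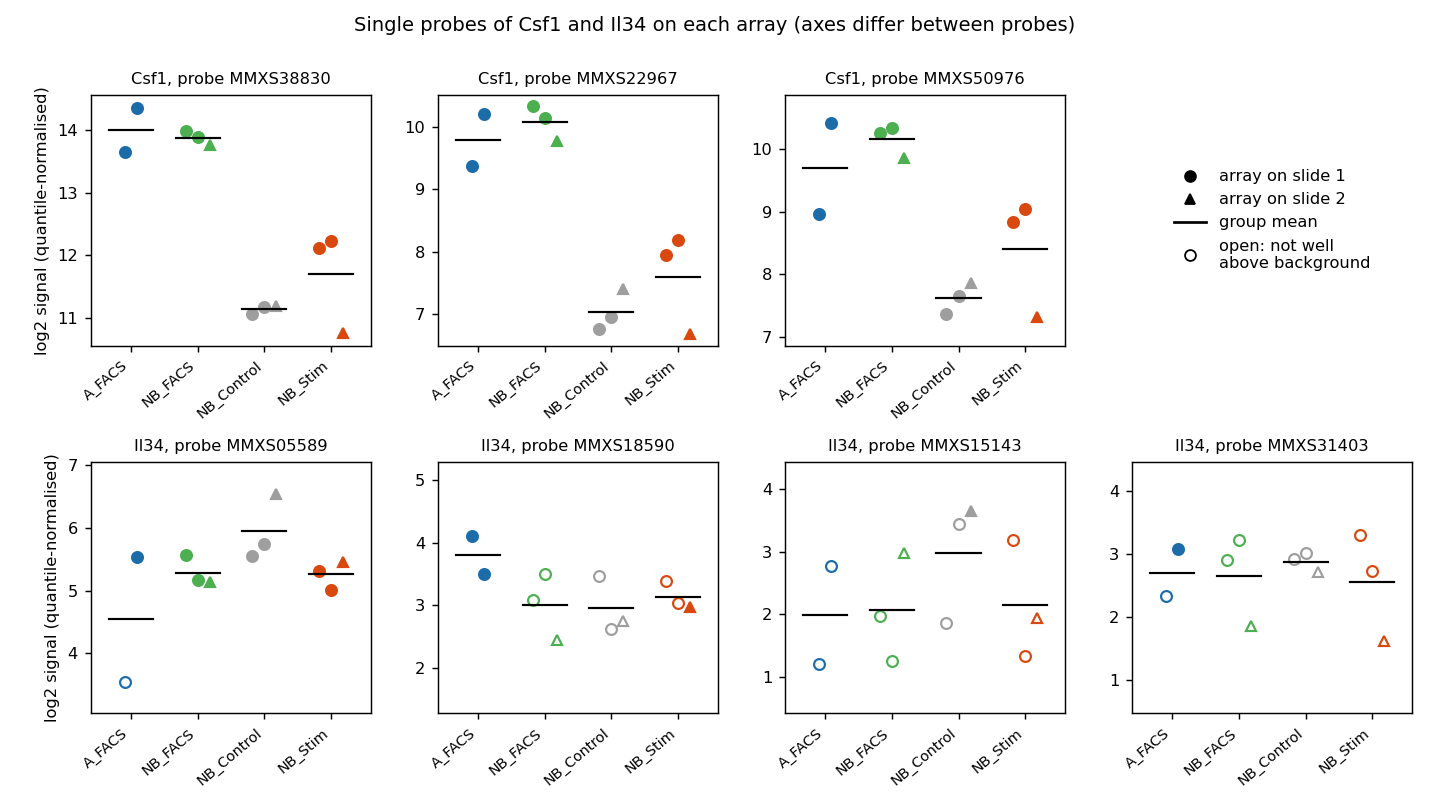
Quantile-normalised log2 signal (vertical axis) of the 3 probes of Csf1 and the 4 probes of Il34 on each array, by group, with circles for slide 1, triangles for slide 2, a line at the group mean and open symbols for arrays on which the probe was not well above background. The probes of Csf1 show 1 pattern, high in sorted and low in cultured cells, whereas MMXS05589 is the only probe of Il34 that was well above background on most arrays (10 of 11).

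Cx3cl1, the neuronal ligand of CX3CR1, had its highest mean in the sorted newborn cells. NB_FACS gave 8.1, 7.98 and 8.05, and A_FACS gave 7.37 and 8.28. NB_Stim gave 7.33, 7.28 and 8.13, and NB_Control gave 7.27, 7.41 and 6.94. NB_Control was below all NB_FACS arrays, while A_FACS and NB_Stim each had 1 array above all of NB_FACS. A_FACS and NB_FACS differed by -0.22 (interval -0.92 to 0.48, adjusted p 0.674, limma). The difference between NB_Control and NB_FACS was -0.84 (SE 0.28, 1.78-fold, adjusted p 0.048, limma). With the replicate block its adjusted p was 0.0527, and the call was lost in 16 of 28 alternatives, among them the omission of any array of NB_FACS or NB_Control (adjusted p 0.0705 to 0.138). Between NB_Stim and NB_Control Cx3cl1 gave 0.37 (interval -0.25 to 1), made up of -0.04 within slide 1 and 1.19 within slide 2.

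Tgfb1, the ligand that microglia themselves produce, gave no call among the newborn groups. A_FACS gave 9.94 and 9.73, NB_FACS 9.52, 9.31 and 9.2, NB_Control 9.36, 9.28 and 9.17 and NB_Stim 9.23, 9.61 and 8.87. Both adult arrays were above all newborn arrays, and the newborn groups overlapped. NB_Stim and NB_Control differed by -0.03 (interval -0.45 to 0.39, adjusted p 0.97, limma), and NB_Control and NB_FACS by -0.07 (interval -0.49 to 0.35). The adult cells exceeded NB_Stim by 0.6 (SE 0.209, 1.51-fold, adjusted p 0.0447), a call lost in 16 of 28 alternatives, and exceeded NB_Control by 0.57 (adjusted p 0.0544, called in 7 of 28 alternatives with adjusted p-values from 0.0226 without NB_Stim replicate 3 to 0.0462 with array weights) and NB_FACS by 0.49 (adjusted p 0.124).

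Set against all genes, the members stood as follows. Between NB_Stim and NB_Control 2 of the 8 were called, both higher, where 3.41% of all genes tested were called and 1.4% were called higher. The arrays of 3 members did not overlap, against 24% of all genes, and the median difference of the members was 0.47 beside 0 over all genes. The number of genes called varied with the fit, from 666 to 1193 with the replicate block, of which 660 were shared, to 304 without NB_Stim replicate 1 and to 118 with cultured replicates 1 and 2 averaged, and the block changed no call of a member here.

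Between NB_Control and NB_FACS 4 members were called, all lower, where 29.7% of all genes were called and 13.9% were called lower. The arrays of 5 members did not overlap, against 44.2% of all genes, and the members' median was -0.71 beside 0.09 over all genes. Between NB_Stim and NB_FACS 2 were called, Tgfbr2 higher and Csf1 lower, where the share of all genes was 31.1%, close to the 2 of 8 members. The arrays of 3 members did not overlap, against 43.5%, and the members' median was -0.33 beside 0.11.

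Between A_FACS and NB_FACS 2 members were called, both higher, where 22.7% of all genes were called, 9.75% higher and 12.9% lower. The arrays of 5 members did not overlap, against 51.2% of all genes, and the members' median was 0.57 beside -0.01. A_FACS exceeded NB_Control in 5 members (Cx3cr1, Csf1r, Tgfbr1, Tgfbr2 and Csf1), where 40.8% of all genes were called, 17.7% higher and 23.2% lower. It exceeded NB_Stim in 5 as well (Csf1r, Tgfbr1, Tgfbr2, Tgfb1 and Csf1), where the shares were 40.2%, 17.5% and 22.8%. In each of these comparisons the arrays of 6 members did not overlap, against 66.4% and 63% of all genes, and the members' medians were 1.91 and 0.95 beside -0.11 and -0.1. Cx3cr1 is the member found in the first of these lists and not in the second. Its difference of 5.24 from NB_Control (SE 0.555, 37.7-fold, adjusted p 7.71e-05, limma) stood beside 1.2 from NB_Stim (interval -0.04 to 2.45, adjusted p 0.111). All A_FACS arrays were on slide 1, within which Csf1r exceeded NB_FACS by 2.36 and Tgfbr2 by 1.25.

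**Figure D3:**
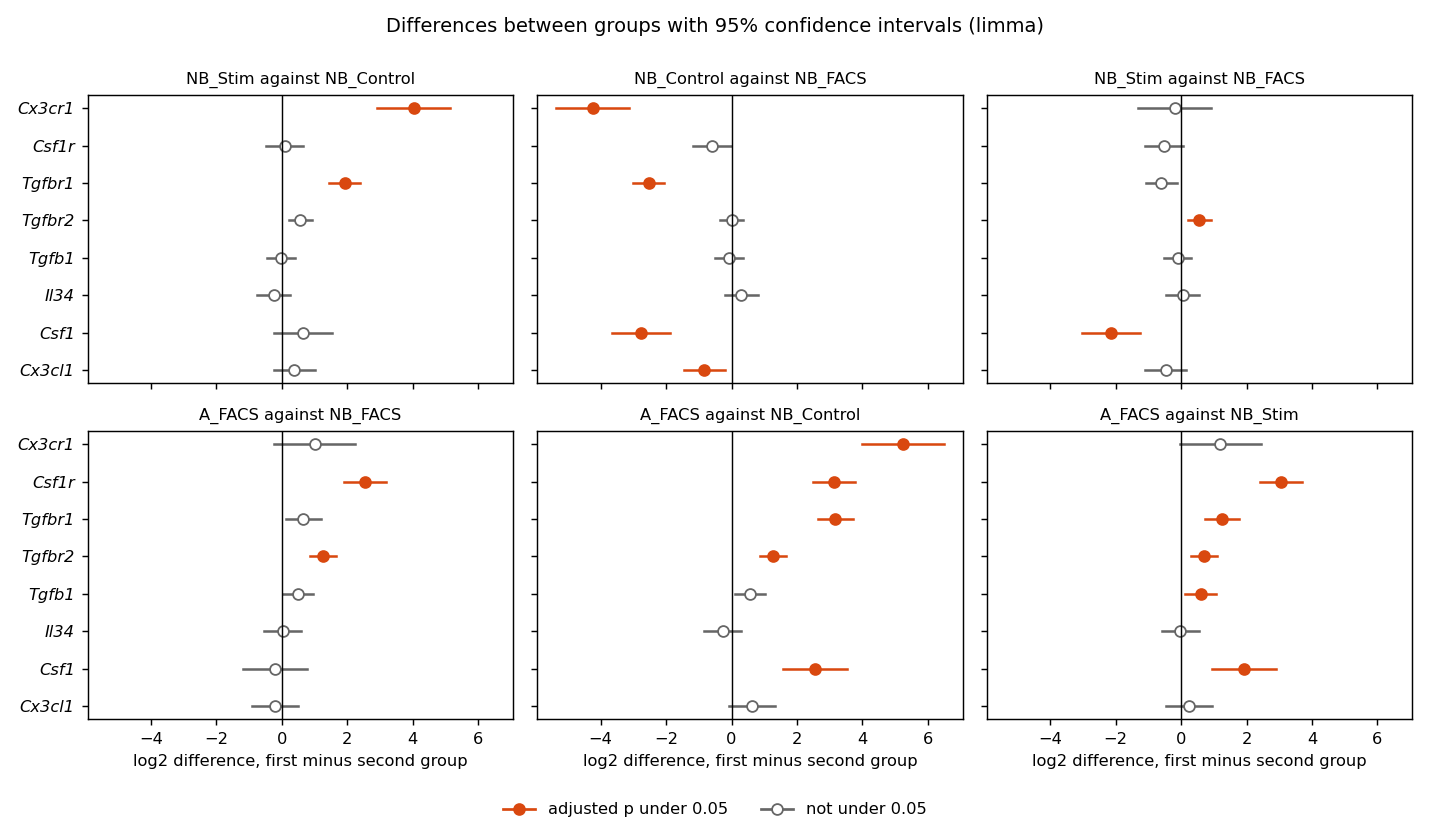
Log2 difference (horizontal axis, first minus second group) of each member in the 6 comparisons, with the 95% confidence interval from limma as a bar and filled symbols for an adjusted p under 0.05. Cx3cr1 and Tgfbr1 lie far to the right in NB_Stim against NB_Control and far to the left in NB_Control against NB_FACS, the filled points of Csf1r are those of the 3 comparisons with A_FACS, and the interval of Il34 includes 0 in all 6.

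The genes around these receptors were read from 6 lists of 72 genes, of which 65 had a matched probe and 64 were tested. The lists hold further TGF-β receptors, proteins that store and release TGF-β, TGF-β response genes, co-receptors and signalling proteins of CSF1R, other colony stimulating factors and related receptor kinases, and proteins that shed CX3CL1 or couple CX3CR1. Between NB_Stim and NB_Control 8 rose, 3 fell and the other 53 were not called, beside 1.4% of all genes called higher and 2% lower, and the median over the 64 was 0.11. Of the 11 TGF-β response genes 3 rose, Tgfbi, a secreted matrix protein induced by TGF-β, by 2.87 (SE 0.244, 7.3-fold, adjusted p 0.00028, limma), Ski by 1.49 and Skil by 1.26. Ski and Skil encode repressors of SMAD activity, and the other 8 genes of this list, among them Smad6, were not called.

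Of the 11 TGF-β receptors and co-receptors 1 rose, the BMP receptor Bmpr2, by 1.04 (adjusted p 0.00215, limma). Of the 8 genes for TGF-β ligands, latency and activation 1 fell, Nrros, which encodes the protein that holds latent TGF-β1 on the surface of microglia, by a difference of -1.52 (SE 0.252, 2.87-fold, adjusted p 0.0102). Nrros had means of 13.89 in NB_Control and 13.74 in NB_FACS, a difference that was not called, and 12.37 in NB_Stim. Its difference between NB_Stim and NB_FACS of -1.36 was called as well (adjusted p 0.00247).

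Around CSF1R, Plcg2, a phospholipase of receptor signalling, rose by 0.77 and Dok2, an adaptor that restrains tyrosine kinase signals, fell by 0.59 (adjusted p 0.0467 and 0.0388, limma), 2 of 12 genes. Of the 12 other colony stimulating factors and receptor kinases 1 fell, Kitl, the ligand of the related receptor KIT, by a difference of -2.07 (SE 0.176, 4.21-fold, adjusted p 0.00028). Kitl averaged 7.4 in NB_FACS, 10.05 in NB_Control and 7.97 in NB_Stim, so that it rose from NB_FACS to NB_Control and was lower again in NB_Stim, and both differences were called. Of the 10 genes for CX3CL1 shedding and CX3CR1 coupling 3 rose. These were Rgs2, a regulator of G protein signalling, by 0.8, the protease Adam10, which sheds CX3CL1, by 0.71 and the protease Ctss by 0.6. Skil and Ctss lie outside the rule for named genes, which takes the 2 largest changes of a list in each direction, and were named after their values were seen.

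**Figure D4:**
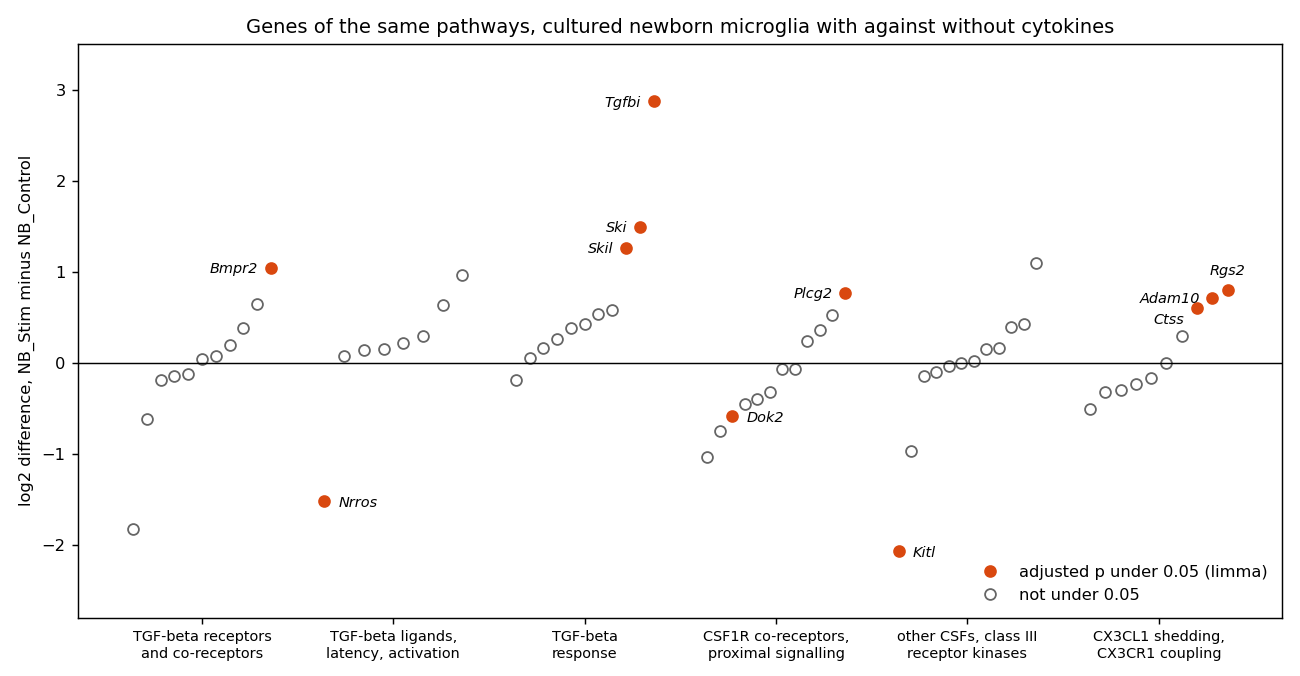
Log2 difference between NB_Stim and NB_Control (vertical axis) of the 64 tested genes in the 6 lists around the members, ordered by value within each list, with filled symbols and names for an adjusted p under 0.05. Tgfbi at 2.87 is the highest point and Kitl at -2.07 the lowest, and most genes of each list lie between -1 and 1 with open symbols.

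Between NB_Control and NB_FACS 15 of the 64 rose and 15 fell, beside 15.8% and 13.9% of all genes. Among the TGF-β response genes 3 rose and 5 fell, with the largest rise in Ccn2 (5.92, 60.7-fold, adjusted p 1.58e-06, limma), a matricellular protein that TGF-β is known to induce, and the largest falls in Skil (-1.63) and Id2 (-1.36). Response genes thus differed in direction within 1 list. Fibroblast markers were higher in NB_Control than in NB_FACS too, as given above, and their part in Ccn2 was not tested.

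In the same comparison 3 genes for TGF-β latency and activation rose, led by the latent TGF-β binding proteins Ltbp1 (3.26) and Ltbp3 (2.38), and Ltbp4 fell (-0.81). Of the receptors and co-receptors 2 rose, Tgfbr3 (1.77) and Acvrl1 (1.33), and 2 fell, Eng (-2) and Acvr2a (-0.66). Eng encodes endoglin, a co-receptor of endothelial cells. The endothelial markers had a lower mean in NB_Control than in NB_FACS, but not each of them, with Cldn5 at 4.77 and 11.99 and Kdr at 8.93 and 8.97, and their part in Eng was not tested. Around CSF1R 4 genes rose, led by the heparan sulfate proteoglycan Sdc1 (3.24), a binding partner of IL-34, and Sos1 (1.56), and 2 fell, Inpp5d (-0.79) and Plcg2 (-0.6). Of the other factors and kinases 3 rose, led by Kitl (2.65) and Csf2rb2 (1.79). All 5 called genes for CX3CL1 shedding and CX3CR1 coupling fell, led by Rhbdf2 (-1.36), a partner of the sheddase ADAM17, and Rgs2 (-1.3).

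Between NB_Stim and NB_FACS 19 of the 64 rose and 8 fell, beside 16% and 15.1% of all genes. All 5 called TGF-β response genes were higher, led by Ccn2 (6.18), and neither Ski nor Skil was called here. Ltbp1 (3.48) and Ltbp3 (3.01) led 4 higher genes for latency and activation, and Nrros was the gene of that list that was lower. The receptors Bmpr1a (1.34) and Acvrl1 (1.14) were the largest of 3 rises, and Eng (-2.62) and Acvr2a (-0.78) fell. Around CSF1R Sdc1 (2.2) and Sos1 (1.48) were higher and Grb2 (-0.43) lower, and among the other factors and kinases 4 were higher, led by Pdgfra (2.6) and Csf2rb2 (1.94), and Csf3 (-1.44) was lower. Pdgfra is also a marker of oligodendrocyte precursors, and the markers of that lineage were higher in NB_Stim than in NB_FACS too, as given above, among them Olig2 with means of 9.16 and 6.67, and their part in Pdgfra was not tested. In the CX3CL1 and CX3CR1 list Ctss (0.64) was higher and 3 genes were lower, led by Rgs1 (-1.3) and Rhbdf2 (-1.07).

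Between A_FACS and NB_FACS 15 of the 64 were higher and 3 lower, beside 9.75% and 12.9% of all genes. Of the CX3CL1 and CX3CR1 list 4 were higher and 0 lower, led by Rgs1 (1.76, SE 0.299, adjusted p 0.00267, limma) and Rgs2 (1.45). TGF-β response genes were higher in 3 cases, among them Skil (1.59), and receptors in 3, led by Eng (1.68) and Acvr1 (1.29). The endothelial markers had their highest mean in A_FACS, as given above. Not each of them was higher there, with Kdr at 8.71 in A_FACS and 8.97 in NB_FACS. Their part in Eng was not tested in this or the other comparisons with A_FACS. Ltbp4 (1.75) and Ltbp1 (1.2) were the 2 higher genes for latency and activation. Around CSF1R Inpp5d (0.93), a phosphatase that counters PI3K, was higher, and Sdc1 (-2.08) and Ptprz1 (-0.76), which both encode reported binding partners of IL-34, were lower. Among the other factors and kinases Kitl (1.81) and Csf3r (1.61) were higher and Pdgfra (-2.7) was lower.

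Between A_FACS and NB_Control 18 of the 64 were higher and 11 lower, beside 17.7% and 23.2% of all genes. Receptors were higher in 3 cases, led by Eng (3.69) and Acvr1 (1.66), and the CX3CL1 and CX3CR1 list in 6, led by Rgs2 (2.76) and Rgs1 (2.73), and in neither list was a gene lower. Of the TGF-β response genes 4 were higher, led by Skil (3.22) and Id2 (1.93), and Ccn2 (-6.01) was lower. Among the genes for latency and activation Ltbp4 (2.56) was higher, and Ltbp1 (-2.06) and Ltbp3 (-1.92) led 4 lower ones. Around CSF1R Inpp5d (1.72) and Pik3cd (1.03) led 3 higher genes, and Sdc1 (-5.32) and Sos1 (-1.23) were lower. Of the other factors and kinases Csf3r (1.65) was higher, and Pdgfra (-4.19) and Csf2rb2 (-1.9) led 4 lower ones.

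Between A_FACS and NB_Stim 18 of the 64 were higher and 16 lower, beside 17.5% and 22.8% of all genes. Eng (4.31) and Acvr1 (1.28) led 3 higher receptors, and Bmpr1a (-1.39) and Bmpr2 (-0.84) were lower. The response genes held 3 higher, led by Skil (1.96) and Id2 (1.52), and 3 lower, led by Ccn2 (-6.27) and Tgfbi (-2.16). Ltbp4 (2.27) and Nrros (1.61) were higher among the genes for latency and activation, and Ltbp3 (-2.55) and Ltbp1 (-2.29) led 4 lower ones. Around CSF1R Pik3cd (1.48) and Inpp5d (1.2) led 3 higher genes, and Sdc1 (-4.28) and Sos1 (-1.15) led 3 lower ones. The CX3CL1 and CX3CR1 list had 5 genes higher, led by Rgs1 (3.05) and Rgs2 (1.96), and Adam10 (-0.62) lower. Of the other factors and kinases Kitl and Csf3r (both 1.23) were higher, and Pdgfra (-5.29) and Csf2rb2 (-2.05) led 3 lower ones. Some of these genes were measured on only part of a group, Sdc1 and Pdgfra on 1 of 2 A_FACS arrays, Ltbp1 on 1 of 3 NB_FACS arrays and Csf3 on 2 of 3 NB_Stim arrays, so that their differences from these groups include values not well above background.

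The genes whose profiles were most like those of the members were sought by Pearson correlation over the 11 arrays among 16656 genes well above background on all arrays. These are descriptions without a test, and the arrays share groups, slides and scaling. Cx3cr1 was most like Tnfrsf21 (r = 0.991), Ang (0.974) and Camk2n1 (0.972), and Tgfbr1 was most like Map3k9 (0.98), Golm1 (0.977) and Fhod1 (0.973). For Csf1r the nearest were Efnb1 (0.987), Map3k5 (0.984) and Phf20l1 (0.983), and for Csf1 they were Plau (0.97), Atr (0.964) and Rpl37rt (0.963). No member was among the 3 nearest genes of another, since members were left out of the search.

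The remaining members had nearest genes as follows. Tgfbr2 was most like Adgrd1 (0.973), Fam117b (0.965) and Olfr594 (0.962), and Tgfb1 most like Magix (0.967), Nfatc2 (0.956) and Gm30150 (0.939). Cx3cl1 was most like Slc38a3 (0.944), Rlbp1 (0.94) and Epb41l4a (0.917). For Il34 the highest correlation was lower, with 0.797 for Gm31125, 0.795 for Sema4f and 0.755 for AU022793, beside the dim probes described above.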

How the data were processed

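RNA of 11 microglial samples was hybridised to single-colour Agilent arrays, and the sample titles gave the group and replicate number. Per the file headers, Feature Extraction 11.5.1.1 produced the deposited signal intensity of each spot, corrected for background, with flags for outliers and for spots well above background (version 11 per the submitters' processing notes, grid build mm9). The authors' methods state quantile normalisation of the array data and name ANOVA with a post-hoc test, Tukey's or Dunnett's, for array and PCR data together. The intensities of the deposited table of the whole series were compared with those of the scanner files (62927 entries, relative tolerance 1e-05) and differed in 0 entries.

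The log2 of the deposited intensity was taken in R 4.3.3 with limma 3.58.1 and the package data.table (version 1.17.8), with a pseudocount of 0. Spots of a probe were averaged without outlier flags, 138 probes flagged in all spots of an array were left out, and all probes were quantile normalised. A probe was kept (44727 of 60037) when all its spots cleared the background on all arrays of 1 group or more, and a gene was the mean of its kept probes. Symbols came from RefSeq accessions through reference gene records (GRCm38.p6, names only), which matched 36264 probes (60.4%) to 23329 symbols. On each array 66.8% to 80.5% of probes were well above background, the 75th percentile of signals ranged from 173 to 315 for slide 1 and from 446 to 509 for slide 2, and 0 spots were saturated. The number of arrays limits the precision.

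One mean per group was fitted in limma over 19555 genes (7 residual and 2.69 prior degrees of freedom), the 6 pairwise comparisons were tested 2-sided, and p-values were adjusted by Benjamini-Hochberg within each comparison with a threshold of 0.05. The script was tested on simulated data. The members, the pathway and marker lists and the alternatives were chosen with earlier results of these data known. The text names all 8 members, the 2 largest called rises and falls of each pathway list in each comparison, and the 3 genes most correlated with each member, except that some genes are not reported here.

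The methods name the samples as independent biological replicates. Cultured replicates 1 and 2 differed by a median of 0.119 (NB_Control) and 0.128 (NB_Stim) on the log2 scale, against 0.169 to 0.363 for the other pairs, so that an alternative averaged them. Whether equal replicate numbers pair the newborn groups was examined through the deviations of arrays from their group means. Their correlations were 0.112 to 0.489 in all 9 pairs, above 0.1, and a replicate block was therefore run as an alternative, while the main fit held no block. Arrays of different numbers correlated as much where they shared slide 1 (0.185 to 0.364) and were at -0.448 to -0.184 across slides, so that number and slide cannot be told apart here. Other alternatives changed the scaling, background correction, filter, probe summary, samples, weights, test and threshold or left out 1 array. Figures were drawn with matplotlib 3.10.9 under Python 3.11.15.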

Additional observations from a re-analysis of the deposited data

How the results depend on the processing

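Over the 48 differences of the 8 members and their 1338 alternatives, 1233 kept the direction and the side of the threshold, 46 lost a call, 29 gained one and 30 changed sign. Some alternatives could not change a difference, so that these counts overstate how far the results were tried. The deposited table held the same intensities as the scanner files, and the brightest probe or the median leaves a gene with 1 probe as it was. Tgfbr1 kept its call between NB_Stim and NB_Control in all 28 alternatives (1.16 to 2.05), and Cx3cr1 lost it in 1, the Tukey test adjusted over genes (4.03, adjusted p 0.0701). Between NB_Control and NB_FACS, Cx3cr1, Tgfbr1 and Csf1 kept theirs in all 28, and between A_FACS and NB_FACS so did Csf1r and Tgfbr2. The replicate block changed the calls given in the report for Cx3cl1 and Tgfbr1 and the number of genes between NB_Stim and NB_Control (1193), and no other call of a member. The block rests on replicate numbers whose pairing was not told apart from the slide in the newborn groups and was not shown for A_FACS. No value of Il34 was at hand with probes well above background on all arrays. The cause of these changes was not tested.

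The number of members called was 4 with array weights and 1 with the adjusted Tukey test between NB_Stim and NB_Control. Between NB_Stim and NB_FACS it was 1 with 75th percentile scaling, with the groups fitted alone, with the adjusted Tukey test and with a log2 difference of at least 1, and 5 with array weights. Between A_FACS and NB_Stim it was 3 with cultured replicates 1 and 2 averaged and with a log2 difference of at least 1, and 2 with the adjusted Tukey test. Without single arrays it was 2 to 2 (NB_Stim and NB_Control), 3 to 5 (NB_Control and NB_FACS), 1 to 3 (NB_Stim and NB_FACS, lowest without NB_FACS replicate 1 or 2), 2 to 3 (A_FACS and NB_FACS), 5 to 6 (A_FACS and NB_Control) and 2 to 5 (A_FACS and NB_Stim, lowest without A_FACS replicate 2).

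The number of genes called between NB_Stim and NB_Control was 1009 with normexp, 1476 with the slide block, 5525 with array weights, 118 with cultured replicates 1 and 2 averaged, 1590 with the Tukey test at 0.05, 183 with that test adjusted and 425 with a log2 difference of at least 1. Without single arrays it was 304 to 703 (334 and 337 without NB_Control replicates 1 and 2, 304 and 318 without NB_Stim replicates 1 and 2). For NB_Control and NB_FACS it was 9140 with unmatched probes kept, 12318 with array weights, 3547 with the adjusted Tukey test, 3159 with a log2 difference of at least 1 and 4516 to 6454 without single arrays. For NB_Stim and NB_FACS these were 9494, 14036, 3620, 3215 and 4638 to 6581. For A_FACS and NB_FACS it was 7021 with unmatched probes, 2923 with the groups fitted alone, 2014 with the adjusted Tukey test, 2407 with a log2 difference of at least 1 and 2456 to 5124 without single arrays. Unmatched probes, the adjusted Tukey test, the log2 limit and single arrays gave 13313, 4881, 4801 and 5188 to 8710 for A_FACS and NB_Control, and 13236, 4654, 4536 and 4890 to 8372 for A_FACS and NB_Stim. The lowest of the last 3 ranges were without A_FACS replicate 1.

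Signs changed for differences that were not called. Tgfbr2 between NB_Control and NB_FACS was 0.02 with 75th percentile scaling, 0.02 with normexp and 0.04 with array weights, and -0.08 to 0.06 without single arrays. Il34 was -0.02 with its brightest probe and -0.01 with array weights between NB_Stim and NB_FACS, -0.03 with normexp, -0.74 with the brightest probe and -0.14 with array weights between A_FACS and NB_FACS, and with 75th percentile scaling 0.14 against NB_Control and 0.2 against NB_Stim. Csf1 between A_FACS and NB_FACS was 0.12 with the brightest probe. Without single arrays the ranges that crossed 0 were, for NB_Stim and NB_Control, 0 to 0.17 (Csf1r) and -0.22 to 0.15 (Tgfb1), for NB_Control and NB_FACS -0.15 to 0.01 (Tgfb1), and for NB_Stim and NB_FACS -0.29 to 0.08 (Tgfb1) and -0.13 to 0.14 (Il34). For A_FACS and NB_FACS they were -0.32 to 0.37 (Il34), -0.71 to 0.28 (Csf1) and -0.67 to 0.23 (Cx3cl1), for A_FACS and NB_Control -0.62 to 0.07 (Il34), and for A_FACS and NB_Stim -0.37 to 0.32 (Il34) and -0.2 to 0.7 (Cx3cl1).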
